A study of Capra hircus with 90 samples.

Results

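RNA levels in 2 sites of the medulla, the retrotrapezoid nucleus (RTN) and the nucleus of the solitary tract (NTS), were compared in goats kept in room air, with both punches taken from the same animal. The comparison rests on 24 of the 90 libraries, from 12 of the 30 goats, chosen by site and exposure label alone: 6 goats after 24 h in room air (24hr_Control) and 6 other goats after 7 d in room air (7d_Control). All goats were adult outbred females of at least 2 years, of Alpine, Saanen, Toggenburg and similar breeds. The NTS punch came from 0 to 2 mm and the RTN punch from 8 to 10 mm rostral to the obex, the landmark where the central canal opens into the fourth ventricle. The other 3 groups, also of 6 goats each, had breathed 6% CO2 for 3 h (3hr_CO2), 24 h (24hr_CO2) or 7 d (7d_CO2), and they served to ask whether a site difference of room air was also there after CO2. RNA of the 24 h room-air, 3 h and 24 h CO2 goats was prepared and sequenced as batch 1, and that of the 7 d goats as batch 2. Time in room air and batch therefore cannot be told apart. Each punch was bulk tissue cut with a thin steel tube and held all the cells that lay in its path.

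The NTS is the dorsal medullary nucleus in which the first synapse of the vagal and glossopharyngeal afferents lies, among them those of the carotid chemoreceptors and of the lung. The RTN is a thin sheet of glutamatergic, CO2-sensitive neurons at the ventral medullary surface that drives breathing. The dorsal motor nucleus of the vagus lies beside the NTS, and the facial motor nucleus lies just dorsal to the RTN. The 2 punches therefore differ in rostrocaudal level, in dorsoventral level and in the neurons nearby. In bulk tissue fewer cells of a type and less RNA per cell cannot be told apart.

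The 24 libraries held 16.6 M to 33.1 M counts, and the group means were 24.5 M and 28.3 M in the NTS and 20.1 M and 23.5 M in the RTN at 24 h and 7 d. Levels are given in CPM, that is, counts scaled to library size with TMM factors, and differences as the log2 of NTS over RTN, so that a negative value means a higher level in the RTN. Gene symbols could be given to 236 of the 16465 genes tested. These are genes that the authors had selected for changes under CO2 on these same libraries, most of them with the 24 h room-air NTS among the libraries, so the 24 h values of a named gene are not free of that selection. The libraries of the 7 d room-air goats entered the selection of 19 of the symbols. MAN2B1, ADCK5, ARHGAP33, EFCAB12, PPP1R12B and RAB11FIP4 are among these, so their 7 d values are not free of it either. None of 11 defining markers of RTN neurons had a symbol, and of the markers of the NTS only NPFF did, so the punches could not be checked against the markers of their nuclei. On the first principal component of the batch 1 NTS libraries (26.5% of the variance) 5 stood apart: numbers 5 and 6 in room air, 5 and 6 after 3 h and 5 after 24 h of CO2, with scores of 16 to 75.3 against -37.9 to -10.1 for the others. These goats were picked from the same expression values that are tested here. Fits without them show how far a result depends on them and are no independent support for a difference.

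A set of 469 genes separated the NTS from the RTN in the same direction in both sets of goats. At 24 h 1049 genes (6.37% of those tested) differed by edgeR's quasi-likelihood test with the goat as a block at an adjusted p of 0.05, 517 higher in the NTS (3.14%) and 532 higher in the RTN (3.23%). At 7 d 1565 genes (9.51%) differed, 641 higher in the NTS (3.89%) and 924 higher in the RTN (5.61%). The shared genes, those that passed in both groups with the same sign, numbered 469 (2.85% of those tested), 213 higher in the NTS (1.29%) and 256 higher in the RTN (1.55%). They made up 44.7% of the 24 h calls and 30% of the 7 d calls. A single gene, ENSCHIG00000007439, passed in both with opposite signs by this test, and either call was lost when any of 4 goats was left out. Of the genes called at 24 h 90.3% had the same sign at 7 d, and of those called at 7 d 87.7% had the same sign at 24 h, against 62.1% of all genes tested. Across all genes the differences of the room-air groups had a Pearson r of 0.696 and a Spearman rho of 0.398, a description over genes that are not independent of each other.

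**Figure D1:**
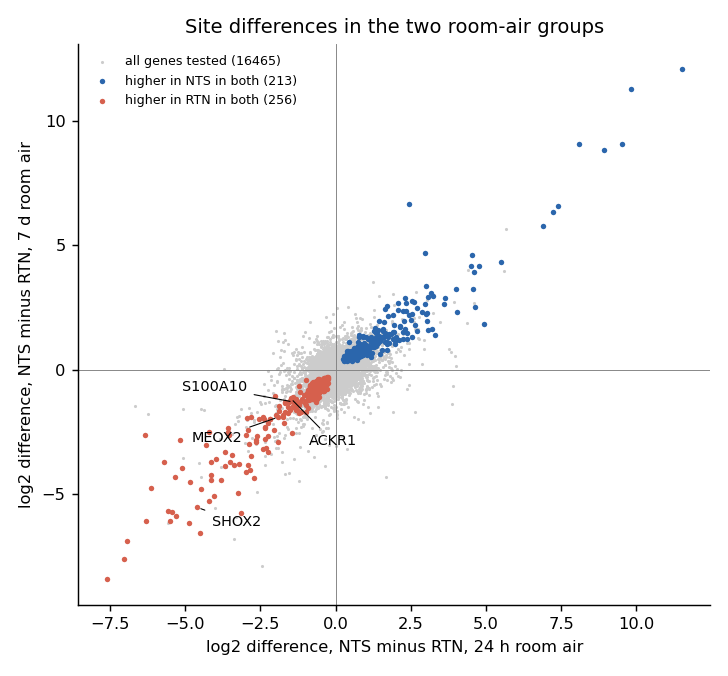
Log2 difference between NTS and RTN in the 24 h room-air goats (x axis) against the 7 d room-air goats (y axis), 1 point per gene tested. The 213 shared genes higher in the NTS lie at the upper right and the 256 higher in the RTN at the lower left, with SHOX2 among the genes of the lower left.

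These counts moved with single goats. Without goat 1, 2, 3 or 4 the 24 h count was 482, 659, 566 or 506, and without goats 5 and 6, whose NTS libraries stood apart, it was 2166. At 7 d it was 862, 887, 635 or 1007 without goat 1, 2, 4 or 5 and 2546 without goat 6. The number of shared genes was 287 without goat 1 and 284 without goat 4 of the 24 h group, and 301 without goat 4 of the 7 d group. Without goats 5 and 6 of the 24 h group it was 735, of which 271 were higher in the NTS and 464 in the RTN, and these took in 416 of the 469.

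The shared differences ran from modest to very large. The median log2 difference of the 213 genes higher in the NTS was 1.22 at 24 h and 1.08 at 7 d, and that of the 256 genes higher in the RTN was -0.82 and -0.96, whereas the median over all genes lay within 0.0037 of 0 in either group. Of the shared genes 211 had an absolute difference of at least 1 in both groups (105 higher in the NTS, 106 in the RTN), 104 of at least 2, 50 of at least 3 and 16 of at least 5. At the level of 2 or more, 63 were higher in the RTN and 41 in the NTS. In 372 of the 469 (79.3%) the order of the 2 sites was the same in all 12 goats, as it was in 4% of all genes tested. The 6 NTS and 6 RTN libraries did not overlap in 184 (39.2%) at 24 h, against 2.43% of all genes, in 224 (47.8%) at 7 d, against 4.1%, and in 111 (23.7%) in both, against 0.753%. Because the same libraries chose the shared genes, these shares describe them and test nothing. The median level of the shared genes was 17 CPM, against 18.6 CPM over all genes tested.

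Of the shared genes 4 had a symbol, SHOX2, MEOX2, S100A10 and ACKR1, and all 4 were higher in the RTN. SHOX2, a homeobox transcription factor of excitatory hindbrain and spinal neurons, had the largest difference among them. In the NTS it lay at 0.0358 to 6.14 CPM at 24 h (median 0.48) and at 0 to 1.42 CPM at 7 d (median 0.224). In the RTN it lay at 14.3 to 57.1 CPM (median 35) and at 11.3 to 25.2 CPM (median 18.1), so the sites did not overlap in either group. The difference was -4.59 (SE 0.61, adjusted p = 0.0115) at 24 h and -5.56 (SE 0.38, adjusted p = 1.78e-05) at 7 d by edgeR. The highest SHOX2 levels of the NTS, 6.14 and 3.85 CPM, were those of the libraries of goats 5 and 6, and without these goats the 24 h difference was -6.87 (adjusted p = 5.36e-09).

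S100A10 encodes a calcium-binding-protein relative that pairs with annexin A2 and carries membrane proteins to the surface. At 24 h it lay at 47.4 to 257 CPM in the NTS (median 66.4) and at 165 to 320 CPM in the RTN (median 199), with the overlap due to goat 6, whose NTS held 257 CPM. At 7 d it lay at 52.4 to 89.6 CPM in the NTS (median 76.2) and at 116 to 242 CPM in the RTN (median 196), with no overlap. The RTN was the higher site in all 12 goats. The differences were -1.39 (SE 0.30, adjusted p = 0.0499) and -1.31 (SE 0.19, adjusted p = 0.00257) by edgeR. The 24 h call sat at the threshold and was lost without goat 2, 3, 4 or 5, with adjusted p of 0.109, 0.121, 0.126 and 0.0879. Without goats 5 and 6 together the difference was -1.84 (adjusted p = 0.0131).

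The other 2 named genes are vascular. ACKR1, the atypical chemokine receptor of venule endothelium and red cells, kept the same order of the sites in every room-air goat. In the NTS it lay at 2.58 to 9.61 CPM (median 4.14) at 24 h and at 3.39 to 6.62 CPM (median 4.75) at 7 d. In the RTN it lay at 7.42 to 21.8 CPM (median 11.8) and at 8.03 to 19 CPM (median 10.7). The ranges overlapped at 24 h only, through the NTS of goat 6 at 9.61 CPM, while within each of the 12 goats the RTN was the higher site. The differences were -1.50 (SE 0.17, adjusted p = 0.000761) and -1.15 (SE 0.22, adjusted p = 0.00962) by edgeR. MEOX2, a homeobox factor of vascular cells, was a gene of low level, at 0 to 0.97 CPM in the NTS and 1.06 to 3.52 CPM in the RTN at 24 h, and at 0.0705 to 0.899 CPM and 0.147 to 3.32 CPM at 7 d. The RTN was higher in 6 of 6 goats at 24 h and in 5 of 6 at 7 d. Its differences were -1.90 (SE 0.39, adjusted p = 0.0177) and -1.92 (SE 0.51, adjusted p = 0.0357) by edgeR. The 24 h call was lost without goat 1 or 2 (adjusted p = 0.0529 and 0.0545) and the 7 d call without goat 1, 2, 3 or 4 (adjusted p = 0.175, 0.106, 0.0792 and 0.0722).

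**Figure D2:**
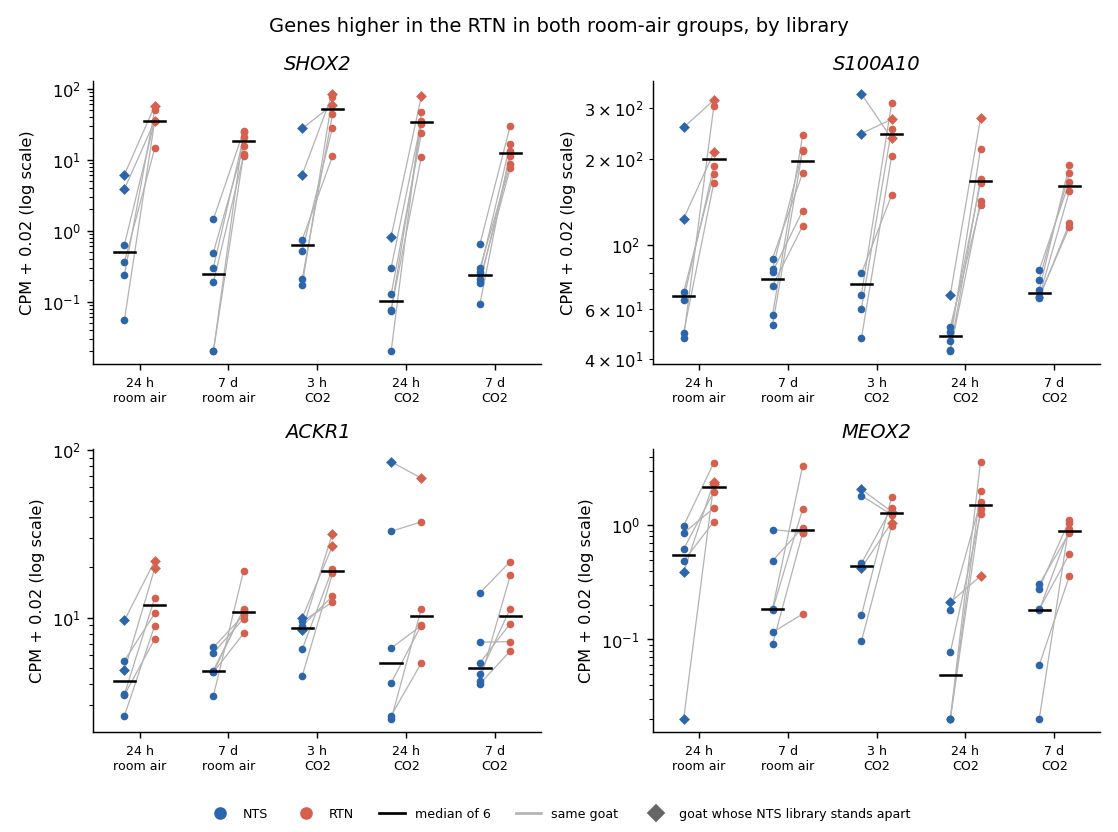
Level of the 4 shared genes with a symbol in every NTS and RTN library (y axis, CPM + 0.02 on a log scale) for the 5 exposure groups (x axis), with grey lines joining the sites of a goat, black bars at the median of 6 and diamonds for goats whose NTS library stood apart. SHOX2 is lower in the NTS than in the RTN in every room-air goat, and the diamonds hold its highest NTS levels of the 24 h room-air group.

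The genes of the largest shared difference had no symbol, and 2 in each direction are given by identifier. ENSCHIG00000015504 was a gene of the NTS. It lay at 2.95 to 22.7 CPM in the NTS at 24 h (median 19.8) and at 15.6 to 26.4 CPM at 7 d (median 21.3), and had 0 counts in all 12 RTN libraries. Against the level of 3 counts over a group, its mean was at least 612-fold higher in the NTS at 24 h and at least 951-fold higher at 7 d. The lowest NTS levels, 2.95 and 4.16 CPM, were those of goats 5 and 6 of the 24 h group. ENSCHIG00000021277 was also higher in the NTS, with a wide range among goats, from 0.22 to 756 CPM at 24 h and from 0 to 337 CPM at 7 d, against at most 0.667 CPM in the RTN (adjusted p = 8.27e-11 and 4.20e-06 by edgeR). Its 2 highest values at 24 h, 350.7 and 756.3 CPM, were those of goats 5 and 6.

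On the RTN side ENSCHIG00000012258 lay at 1.88 to 9.79 CPM at 24 h and 1.68 to 5.70 CPM at 7 d, whereas in the NTS 1 library of each group had any counts, 3 at 24 h and 1 at 7 d (adjusted p = 2.17e-05 and 0.000188 by edgeR). ENSCHIG00000009247 ranged from 0.574 to 49.3 CPM in the RTN at 24 h and from 0.24 to 31.3 CPM at 7 d, against at most 0.254 and 0.403 CPM in the NTS. Its differences were -6.95 (SE 0.42, adjusted p = 3.56e-07) and -6.91 (SE 0.45, adjusted p = 4.28e-06) by edgeR. Its sites did not overlap at 24 h and did at 7 d, where the RTN of goat 3 held 0.24 CPM. Among all genes tested, 2 had over 3 counts in all 12 NTS libraries and at most 3 in all 12 RTN libraries, and 1 showed the reverse pattern. All 3 were shared genes.

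Some neuronal genes had large differences that edgeR did not call, and their levels ranged widely among the goats of a group. PRPH, the peripherin filament of neurons whose axons leave the brain, is the only motor neuron marker with a symbol. At 24 h it lay at 3.59 to 571 CPM in the NTS (median 5.06) and at 41.6 to 697 CPM in the RTN (median 253), and at 7 d at 2.90 to 121 CPM (median 31.2) and 25.3 to 727 CPM (median 257). The RTN was higher in 6 of 6 goats at 24 h and in 5 of 6 at 7 d, and the ranges overlapped in both groups. The differences were -3.02 (SE 0.94, adjusted p = 0.143) and -2.95 (SE 1.51, adjusted p = 0.283) by edgeR, and DESeq2 called both (adjusted p = 0.000291 and 0.0249). The 2 highest NTS levels, 213.8 and 570.9 CPM, were those of goats 5 and 6 of the 24 h group, and without these goats PRPH passed by edgeR (difference -4.65, adjusted p = 0.0362). Leaving out the highest NTS levels can itself enlarge the difference, so this call is no independent support.

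GRP, the gastrin-releasing peptide, and NPFF, the neuropeptide FF precursor, followed the same libraries. GRP lay at 0.385 to 49.9 CPM in the NTS at 24 h (median 2.20) against 8.78 to 27.4 CPM in the RTN (median 14.2), and at 0.859 to 38.2 CPM (median 4.49) against 6.88 to 24.9 CPM (median 10.8) at 7 d. It differed by -1.68 (SE 0.91, adjusted p = 0.359) and -1.07 (SE 0.75, adjusted p = 0.412) by edgeR, and by -3.45 (adjusted p = 0.00466) at 24 h without goats 5 and 6. NPFF differed by 1.90 (SE 0.83, adjusted p = 0.227) at 24 h and by -1.71 (SE 0.67, adjusted p = 0.141) at 7 d. The positive 24 h value rested on the NTS of goats 5 and 6, with 9.34 and 46.85 CPM against 0.215 to 0.812 CPM in the other 4 goats, and without them the difference was -1.36 (adjusted p = 0.0634). At 7 d the highest NPFF level was that of the RTN of goat 6, 11.15 CPM, against 0.622 to 1.32 CPM in the RTN of the other goats. TTR, the transthyretin made by choroid plexus, differed by -0.47 and -0.48 (SE 0.39 and 0.52, adjusted p = 0.552 and 0.608) and reached at most 6.33 CPM. Whether more motor or peptide neurons in a punch go with the other differences was not tested.

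**Figure D3:**
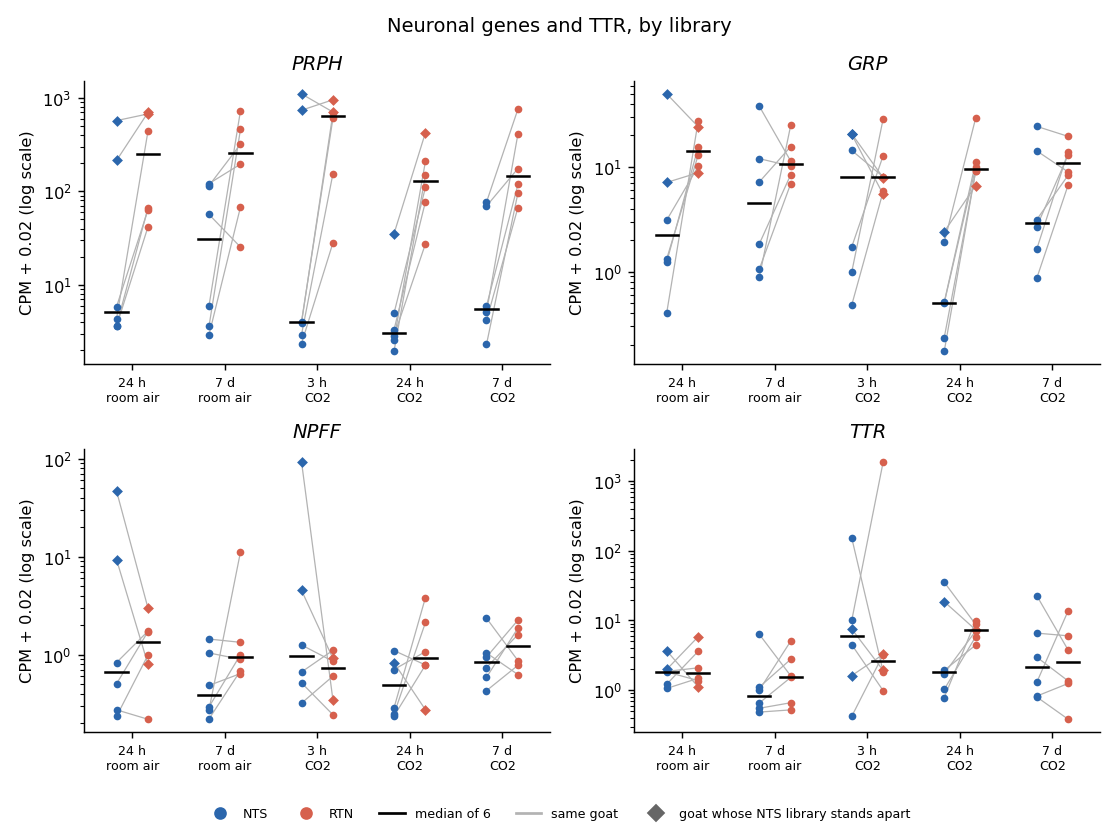
Level of PRPH, GRP, NPFF and TTR in every NTS and RTN library (y axis, CPM + 0.02 on a log scale) for the 5 exposure groups (x axis), drawn as lines per goat with black bars at the median of 6. The diamonds, goats whose NTS library stood apart, include the highest NTS level of PRPH, GRP and NPFF in the 24 h room-air group.

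Among the 236 genes with a symbol 12 were called at 24 h (5.08%, against 6.37% of all genes) and 19 at 7 d (8.05%, against 9.51%). Besides the 4 shared ones, 8 passed by edgeR at 24 h alone and 15 at 7 d alone. They are named here after their values were seen. Most of these calls were lost without 1 goat or another: only 1 of the 8 and 4 of the 15 passed whichever goat of the group was left out. At 24 h COL4A2, a basement-membrane collagen chain, was higher in the NTS by 0.69 (SE 0.11, adjusted p = 0.00535), at 43.0 ± 11.7 against 26.1 ± 4.07 CPM (SD, n = 6 each). It was 31.5 ± 10.8 and 32.1 ± 4.50 CPM at 7 d. COL4A2 was the gene of the 8 whose call held without any goat. HBQ1, a globin, ESPN, an actin-bundling protein, DNPH1, NREP and SEC31B were also higher in the NTS, by 0.36 to 0.78. NREP and SEC31B lost the call without any of 5 goats, HBQ1 without any of 3, ESPN without either of 2 and DNPH1 without 1. Without the goat block ESPN, DNPH1, NREP and SEC31B were not called (adjusted p = 0.186, 0.127, 0.130 and 0.106). ESPN and DNPH1 were called with the same sign at 7 d by voom (adjusted p = 0.00207 and 0.00580) and in a fit over all 60 NTS and RTN libraries (0.0194 and 0.0473), and ESPN by DESeq2 (0.0413). The same 60-library fit did not call them at 24 h (adjusted p = 0.103 and 0.126). The bile salt pump gene ABCB11 was called higher in the NTS as well. ABCB11 lost the call without goats 5 and 6 (adjusted p = 0.570), without goat 6 alone (0.0934) and without the goat block (0.149). DESeq2 and voom did not call it with all goats (0.12 and 0.115). TXN, the redox protein thioredoxin, was higher in the RTN, with a difference of -0.33 (SE 0.07, adjusted p = 0.0171). That call was lost without the goat block (adjusted p = 0.381), in the 60-library fit (0.0826) and without goat 1, 3 or 4 (0.0701, 0.0622 and 0.0660).

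At 7 d the genes called higher in the NTS included those of the endothelial nitric oxide synthase, NOS3, and of the endothelial receptor ACVRL1. ACVRL1 lay at 17.9 ± 2.46 CPM in the NTS and 12.2 ± 2.39 CPM in the RTN (difference 0.56, SE 0.14, adjusted p = 0.0288) and NOS3 at 26.4 ± 5.39 and 18.2 ± 3.00 CPM (difference 0.53, SE 0.13, adjusted p = 0.0238; SD, n = 6 each). Both lost the call without goat 1, 2, 3 or 4, with adjusted p of 0.0580 to 0.0959 for ACVRL1 and 0.0671 to 0.0812 for NOS3. CAV1, the coat protein of caveolae, ADCK5 and the lysosomal mannosidase gene MAN2B1 were higher in the NTS too, by 0.45, 0.36 and 0.55. CAV1 and ADCK5 lost the call without any of 4 goats, ADCK5 also with no filter on low counts (adjusted p = 0.0606), and MAN2B1 without goat 4 (adjusted p = 0.0559). On the RTN side 10 genes passed by edgeR at 7 d alone, among them GNG3, a G-protein subunit of neurons (-0.84, SE 0.11, adjusted p = 0.00103), and DPYSL3, a protein of growing axons (-0.61, SE 0.11, adjusted p = 0.00602). Both had negative values at 24 h as well, -0.37 (adjusted p = 0.0794) and -0.52 (adjusted p = 0.0716) by edgeR. DESeq2 (0.0227 and 0.00662) and voom (0.0254 and 0.0186) called both at 24 h, and the 60-library fit called DPYSL3 (0.0293). Both also passed there by edgeR without goats 5 and 6 (adjusted p = 0.00239 and 8.21e-05). The other 8 were ARHGAP33, EFCAB12, HOATZ, MTCL2, PPP1R12B, RAB11FIP4, RHBDD3 and TMEM102. ARHGAP33, EFCAB12, PPP1R12B and RAB11FIP4, like ADCK5 and MAN2B1, had been selected by the authors on the 7 d NTS libraries. Of the 10 the calls of GNG3, DPYSL3, ARHGAP33 and RHBDD3 held without any goat. HOATZ lost the call without any of 5 goats and in the 60-library fit (adjusted p = 0.138), PPP1R12B and RAB11FIP4 without any of 4, MTCL2 without any of 3, and EFCAB12 and TMEM102 without 1. At 24 h HOATZ passed by edgeR without goats 5 and 6 (-2.01, adjusted p = 0.00793). Without the goat block MTCL2, PPP1R12B and RAB11FIP4 were not called (adjusted p = 0.0958, 0.0979 and 0.0921).

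A call in a single room-air group does not show that the groups differ, so the change of the site difference was tested over all 24 libraries. By edgeR 0 of 16465 genes passed (0%; 2110 at an unadjusted p under 0.05, lowest adjusted p 0.0646), while DESeq2 called 183, voom 114 and a fit over all 60 NTS and RTN libraries 123. Leaving out goat 6 of the 7 d group gave 79 genes by edgeR and leaving out goat 5 of the 24 h group 1. MAN2B1 had the lowest adjusted p. The authors had selected it for a CO2 change in the 7 d NTS, so its 7 d value is not free of that. Its difference was -0.33 at 24 h, with the RTN higher in 5 of 6 goats, and 0.55 at 7 d, with the NTS higher in 6 of 6, a change of 0.89 (SE 0.15, adjusted p = 0.0646 by edgeR). Its 24 h difference was not called by edgeR (adjusted p = 0.0575) but was by DESeq2 (0.0220), voom (0.0144), the 60-library fit (0.0401) and edgeR without goats 5 and 6 (0.00354), so under these fits it too was called in opposite directions. ENSCHIG00000007439, the gene called in opposite directions, was higher in the NTS of all 6 goats at 24 h (45.3 ± 2.84 against 33.9 ± 8.26 CPM) and higher in the RTN of all 6 at 7 d (47.3 ± 5.63 against 36.5 ± 4.49 CPM; SD, n = 6 each). The change was -0.81 (SE 0.16, adjusted p = 0.0908 by edgeR). The 24 h call of this gene was lost without goat 1, 2, 3 or 4 (adjusted p = 0.0920 to 0.111) and without the goat block (0.125), and the 7 d call without goat 1, 2, 4 or 5 (0.114 to 0.149), without the block (0.0578) and with no filter (0.0535). No shared gene passed this test, which says little about them, since they were chosen on the same libraries for having the same sign in both groups.

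Gene groups could be followed only as far as their symbols went. Of the cytosolic ribosomal protein genes 14 of 83 had a symbol, and of the nuclear-encoded genes of the respiratory chain and ATP synthase 11 of 80. None of either passed by edgeR in room air at 24 h or 7 d, where 6.37% and 9.51% of all genes did, and lists this short cannot tell 0 calls from such shares. The median differences were -0.06 and 0.07 for the ribosomal and -0.02 and -0.03 for the respiratory genes, against -0.0037 and -0.0033 over all genes. The 4 microglial and myeloid genes (AIF1, CD14, MYO1G and NCF4), the oligodendrocyte factors OLIG1 and OLIG2 and the 4 hypoxia and vessel growth genes (EGLN1, VEGFA, VEGFB and VEGFC) had no call by edgeR in either group, which for lists of this length is near the share of all genes. Of these VEGFA, the main vessel growth factor, was higher in the RTN of all 12 goats with differences of -0.23 (SE 0.08, adjusted p = 0.122) and -0.33 (SE 0.11, adjusted p = 0.0779), and the 60-library fit called it at 7 d (-0.32, adjusted p = 0.0260). The 6 endothelial genes did not move as a group: ACKR1 and MEOX2 were higher in the RTN in both groups of goats, ACVRL1 and NOS3 were higher in the NTS at 7 d, and THBD and FOXQ1 passed in neither. Among the other named genes GABRB2, a GABA receptor subunit, EGLN1, an oxygen-sensing prolyl hydroxylase, OLIG1, THBD and the mitochondrially encoded COX1 had adjusted p values of 0.156 to 0.973 at both times.

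Most of the shared genes differed between the sites in the same direction after 24 h and 7 d of CO2, and fewer passed after 3 h. No library is shared between the room-air and the CO2 fits, so the CO2 goats are a separate measurement of the 469 genes. After 24 h of CO2 424 of them (90.4%) passed 0.05 by edgeR with the sign they had in room air, against 21.1% of all genes called in either direction, and after 7 d of CO2 432 (92.1%), against 29.5%. After 3 h it was 175 (37.3%), against 2.3%. By direction, 46.9%, 88.7% and 88.3% of the 213 genes higher in the NTS passed so after 3 h, 24 h and 7 d, against 1.27%, 9.09% and 14.5% of all genes, and 29.3%, 91.8% and 95.3% of the 256 genes higher in the RTN, against 1.03%, 12% and 15%. No shared gene was called with the opposite sign in any CO2 group. The sign was that of room air in 467, 469 and 465 of the 469 genes (99.6%, 100% and 99.1%) after 3 h, 24 h and 7 d. Of all genes tested 70.7%, 71.4% and 60.2% had the sign of the 24 h room-air group. The size was also close to that of room air, with medians of 1.10, 1.06 and 0.95 for the genes higher in the NTS and -0.72, -0.83 and -0.81 for those higher in the RTN.

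The low 3 h count went with few calls at that time over all genes, 379 in all. This number was 176, 227, 92 or 128 without goat 2, 3, 4 or 5, and the shared genes among them were 96, 69 or 93 without goat 2, 4 or 5. Without goats 5 and 6, whose NTS libraries stood apart, 207 of the 469 shared genes passed (44.1%, against 2.94% of all genes), and by DESeq2 with all goats 287. The lowest NTS library of that group held 9.64 M counts.

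In all 3 CO2 groups 154 of the shared genes (32.8%) passed, 86 higher in the NTS and 68 higher in the RTN, 265 in 2 groups, 39 in 1 and 11 in none. At most 2.3% of all genes can have passed in all 3, the share called after 3 h. For 2 groups, 1 or none the share of all genes was not counted. In 167 (35.6%) the order of the sites was the same in all 30 goats of the study, 90 higher in the NTS and 77 in the RTN, as in 1.14% of all genes. These 30 include the 12 room-air goats whose libraries chose the shared genes, so this share describes them and tests nothing. ENSCHIG00000015504 had 0 counts in all RTN libraries after 3 h and 24 h of CO2, so that its NTS mean was at least 659-fold and 526-fold higher. After 7 d it had at most 2 counts in an RTN library. SHOX2 was higher in the RTN in each of the 18 CO2 goats, at -4.30 (SE 0.92, adjusted p = 0.0703) after 3 h, -7.32 (SE 0.21, adjusted p = 9.98e-15) after 24 h and -5.80 (SE 0.20, adjusted p = 1.35e-10) after 7 d by edgeR. The 3 h goats included NTS libraries that stood apart, with up to 27.6 CPM, and without them the value was -6.62 (adjusted p = 0.00129). S100A10 was -1.15 (adjusted p = 0.201), -1.87 (adjusted p = 2.57e-09) and -1.10 (adjusted p = 2.29e-06), and MEOX2 -0.95 (adjusted p = 0.388), -4.30 (adjusted p = 4.77e-05) and -2.49 (adjusted p = 0.000595). ACKR1 passed after 3 h (-1.33, adjusted p = 0.0206) and 7 d (-0.90, adjusted p = 0.0129) but not after 24 h (-0.44, SE 0.29, adjusted p = 0.347), when it reached 85.1 CPM in an NTS library and 67.9 CPM in an RTN library.

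**Figure D4:**
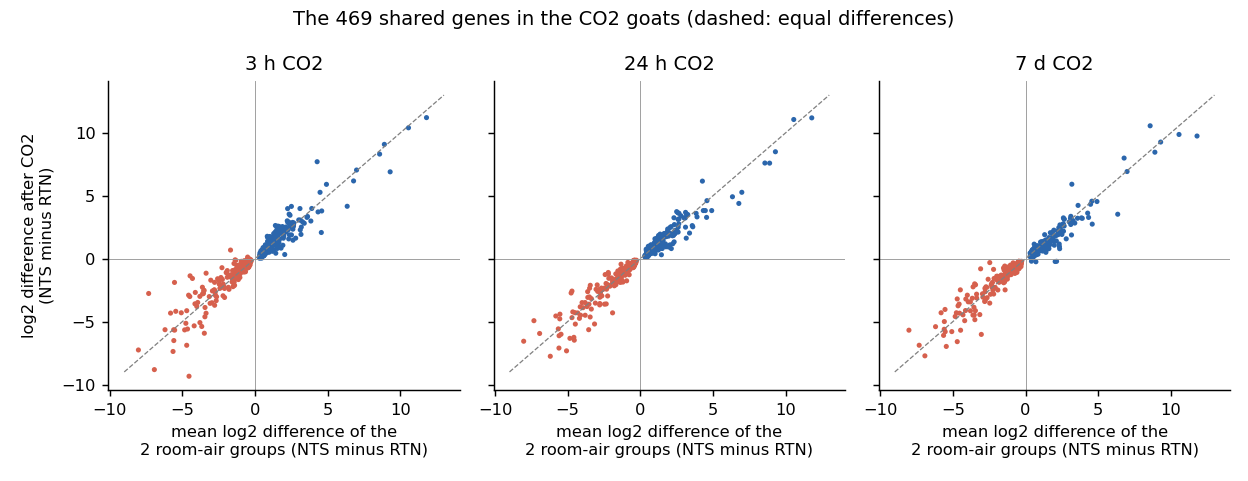
Log2 difference between NTS and RTN after 3 h, 24 h and 7 d of CO2 (y axes) against the mean of both room-air groups (x axes) for the 469 shared genes, with a dashed line of equal differences. Nearly all genes keep their sign, 467, 469 and 465 of 469, and follow the line.

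Whether CO2 changed a site difference was tested as the site-by-exposure interaction within each batch. The 3 h and 24 h tests share the 24 h room-air libraries. None of the shared genes passed in any of these tests. That says little about them, since the tests reuse the room-air libraries that chose them and at most 0.383% of all genes passed. Over all genes 0 passed by edgeR after 3 h (0%; 683 at an unadjusted p under 0.05; DESeq2, voom and the 60-library fit also gave 0), and 0 after 7 d (0%; 1253 at an unadjusted p under 0.05; DESeq2 gave 37, voom 7 and the 60-library fit 4). After 24 h 63 genes (0.383%) passed, 61 of them with a lower NTS-over-RTN difference after CO2 than in room air and 2 with a higher one. This count was 0 without the goat block, 0 in the 60-library fit and 0 when any of 9 of the 12 goats was left out. It was 111 without goat 5 of room air, 189 without goat 5 of the CO2 group, and 230 without all goats whose NTS libraries stood apart. Of the 63 genes 22 had a symbol, all of them among the 61, and all were chosen by the authors for a change under CO2, so their direction is not independent.

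Of these 22 TXN was the only one called in room air. They included 6 of the 14 ribosomal genes (among them RPL36, RPL38, RPLP2 and RPS28) and 5 of the 11 respiratory genes (NDUFA2, NDUFA6, NDUFA7, NDUFA13 and NDUFB4), or 42.9% and 45.5%, against 9.32% of the 236 genes with a symbol and 0.383% of all genes. All 14 and all 11 had been selected by the authors for a CO2 change in the NTS at 24 h, on libraries of this test. The 236 genes also hold genes selected at other sites and times, so these shares cannot be read as a result about the gene groups. Of the 22 genes the 5 of lowest p were ROMO1, a small mitochondrial inner membrane protein, NDUFB4, a subunit of complex I, POLR2L, a small subunit of RNA polymerases, AP2S1, a subunit of the clathrin adaptor, and SMIM11. ROMO1 lay at 102 to 214 CPM in the NTS and 90.7 to 207 CPM in the RTN in room air, and at 59.0 to 106 and 93.0 to 135 CPM after 24 h of CO2, when the RTN was higher in all 6 goats. Its difference went from 0.02 to -0.62, a change of -0.63 (SE 0.10). The changes of NDUFB4, POLR2L, AP2S1 and SMIM11 were -0.52 (SE 0.09), -0.85 (SE 0.14), -0.51 (SE 0.09) and -0.67 (SE 0.12), all with an adjusted p of 0.0278 by edgeR. After 24 h of CO2 all 14 ribosomal and all 11 respiratory genes with a symbol were called higher in the RTN, with medians of -0.69 and -0.47. So were 117 of the 236 genes with a symbol (49.6%, median -0.42), all of them selected by the authors for a change under CO2, and 12% of all genes. The limit set by the selection of the ribosomal and respiratory genes holds for these shares too. After 7 d of CO2, in the other batch, the direction was the opposite: all 14 ribosomal genes and 8 of the 11 respiratory genes were called higher in the NTS and none higher in the RTN, with medians of 0.46 and 0.32. Of the 236 genes with a symbol 56 (23.7%) were called higher in the NTS then, against 14.5% of all genes. SMIM11 was higher in the NTS by 0.73 (SE 0.10, adjusted p = 0.000157) and NDUFB4 by 0.35 (SE 0.08, adjusted p = 0.00472), against 0.33 and 0.09 in the 7 d room-air goats. Neither change passed (adjusted p = 0.660 and 0.663).

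The ventral respiratory column (VRC), punched 2 to 4 mm rostral to the obex in the same goats, gave a further level for each of the 469 genes. It is close to the NTS in rostrocaudal level and lies ventrally, as the RTN does. For each gene the place of the VRC was read on the log2 scale (mean CPM + 0.1) between the RTN, at 0, and the NTS, at 1. Of the 213 genes higher in the NTS the VRC was nearer to the RTN in 182 (85.4%) at 24 h and in 185 (86.9%) at 7 d. The median place was 0.049 and 0.00244, close to the RTN level, and at 24 h 100 of the 213 were lower in the VRC than in the RTN. Of the 256 genes higher in the RTN the VRC was nearer to the RTN in 94 (36.7%) at 24 h and 126 (49.2%) at 7 d, with a median place of 0.679 and 0.51. In both groups it was nearer to the NTS in 124 and nearer to the RTN in 88. Without the goats whose NTS libraries stood apart, the VRC was nearer to the RTN in 120 of these 256 genes at 24 h. The 24 h count of 94 therefore depended on those goats. For the 213 genes higher in the NTS the 24 h count without them was 183, against 182 with all goats. These are descriptions of means, with no test.

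Named genes showed both patterns. SHOX2 in the VRC lay between the other sites, at 4.93 to 10.2 CPM at 24 h and 4.50 to 7.95 CPM at 7 d, without overlap with the RTN in either group. S100A10 lay at 77.5 to 129 CPM and 85.6 to 127 CPM in the VRC, and ACKR1 at 5.73 to 9.31 and 7.32 to 9.84 CPM. MEOX2 averaged 2.52 ± 1.13 and 1.89 ± 0.98 CPM in the VRC and 2.11 ± 0.87 and 1.25 ± 1.09 CPM in the RTN at 24 h and 7 d (SD, n = 6 each), with overlapping ranges. PRPH was low in the VRC, at 3.76 to 19.5 CPM at 24 h and 4.42 to 6.85 CPM at 7 d. ENSCHIG00000015504 had a few counts there, at most 9 at 24 h and 58 at 7 d, whereas ENSCHIG00000021277 reached 18.9 and 3.50 CPM.

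**Figure D5:**
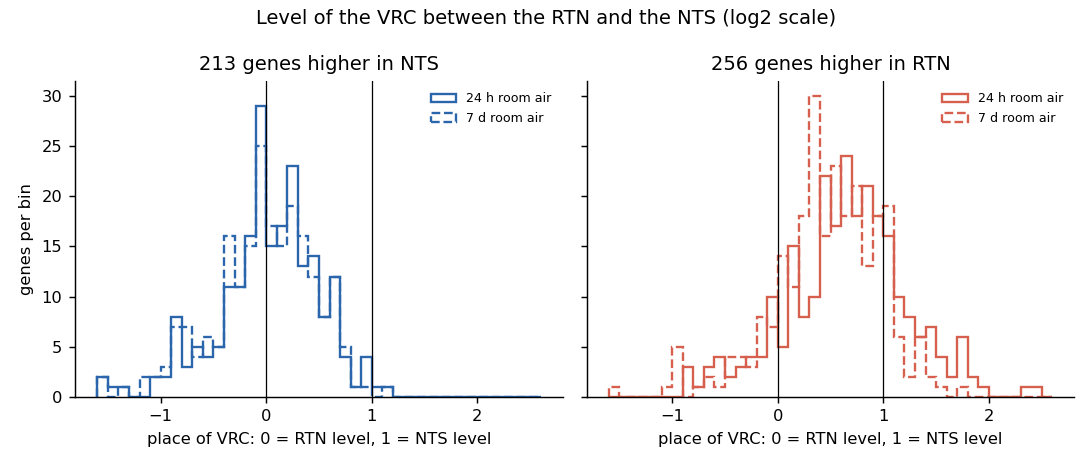
Number of shared genes (y axis) by the place of the VRC between the RTN (0) and the NTS (1) on the log2 scale (x axis), with solid lines for 24 h and dashed lines for 7 d in room air and values beyond the axis drawn in the end bins. The 213 genes higher in the NTS centre near 0, with values on both sides of it, and most of the 256 genes higher in the RTN lie between 0 and 1.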

How the data were processed

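Bulk RNA of brainstem punches was read as 100-bp pairs from SMART-Seq v4 and Nextera XT libraries, per the labels' protocols. Tools named in the submitters' processing notes are STAR 2.7.10b, fastp 0.24.0, edgeR 4.6 and featureCounts 2.0.6. The build and gene models were not given in the sources used here. Raw counts per gene for 25144 goat genes in 90 libraries were deposited by the authors, and 0 columns were left out. They also deposited tables of genes changed by CO2, with log2 fold changes, log2 abundances, a likelihood ratio score and p-values, per the file headers. These tables were used only to link symbols: a likelihood ratio fit with a minimum count of 5 kept 17730 genes, and all 342 entries matched 1 gene by mean abundance, with fold changes within 0.0015 and the next best gene at least 0.0048 away, which linked 238 symbols.

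The counts went into edgeR 4.0.16 under R 4.3.3 (TMM, filterByExpr with a minimum count of 10 over the 60 NTS and RTN libraries, glmQLFit with robust=TRUE, quasi-likelihood F test), each exposure group alone on 12 libraries with the goat as a block, and changes on 24 libraries, in 9 comparisons. P-values were adjusted by Benjamini-Hochberg over 16465 genes, with a threshold of 0.05. SE is the absolute log2 difference divided by the square root of the F statistic. It is derived from the test, and where a site has counts near 0 it is no measure of precision. The replicate numbers mark the same goat at each site: residuals of NTS and RTN libraries of the same number correlated at 0.0697 to 0.473 (median 0.274, against -0.0438 for other numbers), and the best match was the same number for 29 of 30 NTS and 30 of 30 RTN libraries. The exception was the NTS library of goat 6 of the 7 d room-air group, 1 of the 12 pairs compared, at 0.106 with its own RTN library. Each exposure group has different goats, so p-values measure the spread between animals.

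The naming rule takes up to 12 shared genes with a symbol and at least 1 CPM per direction, members of 24 gene lists that are shared, 11 genes whatever their p, the 5 of lowest p per change test, and 2 identifiers per direction. Alternatives were fits without the block, DESeq2 1.42.0, limma 3.58.1 voom with quality weights, no low-count filter, 1 CPM in 6 libraries as the filter, RLE factors, 1 fit over 60 libraries, a log2 limit of 1, and fits without each goat or without goats whose NTS libraries stood apart. The comparison, the members and the lists were chosen with earlier results of these data known. Code was tested on simulated data.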

Additional observations from a re-analysis of the deposited data

Results flagged for a closer look

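In 25 of 96 groups of 6 room-air libraries, counted over the genes chosen by rule and both sites, 1 library lay far from the other 5. About 1 in 20 such groups is expected by chance for normally distributed values. The values used were untransformed CPM, for which that rate need not hold, and the groups share libraries, so 25 of 96 cannot be read as an excess. The NTS library of goat 6 of the 24 h group was the high one for GRP (49.9 CPM), NPFF (46.85 CPM), PRPH (570.9 CPM), S100A10 (256.6 CPM), TTR (3.65 CPM), NDUFB4 (185.4 CPM), POLR2L (122.3 CPM) and ROMO1 (214.1 CPM), and the RTN library of the same goat for ROMO1 (206.6 CPM). At 7 d the RTN library of goat 6 was the high one for AP2S1 (148.7 CPM), NDUFB4 (194.5 CPM), NPFF (11.15 CPM), POLR2L (141.8 CPM), ROMO1 (250.7 CPM) and SMIM11 (70.2 CPM), and the NTS library of goat 3 for POLR2L (79.96 CPM) and ROMO1 (135.9 CPM). The others were the NTS of goat 1 at 7 d for SHOX2 (1.425 CPM) and ENSCHIG00000021277 (336.5 CPM), the RTN of goat 1 at 7 d for ENSCHIG00000021277 (0.1365 CPM), the NTS of goat 4 at 7 d for GRP (38.2 CPM), the NTS of goat 2 at 7 d for TTR (6.33 CPM) and the RTN of goat 2 at 7 d for ACKR1 (19.0 CPM). ENSCHIG00000012258 had its only NTS counts in goat 5 at 24 h (0.0922 CPM) and goat 3 at 7 d (0.0353 CPM).

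The site difference changed between 24 h of room air and 24 h of CO2 for 63 genes by edgeR's test of the interaction. ROMO1 changed by -0.63, NDUFB4 by -0.52, POLR2L by -0.85, AP2S1 by -0.51 and SMIM11 by -0.67 (adjusted p = 0.0278 each). The direction was the same in every goat of a group and opposite in another group for 4 genes. This was looked for only among the genes chosen by rule, the genes with a symbol called in room air and ENSCHIG00000007439. Its share over all genes was not counted. ACVRL1 was higher in the NTS in all goats of 7 d room air (0.56), 3 h and 24 h of CO2, and lower in all goats after 7 d of CO2; the change from 7 d of room air was -0.93 (edgeR, adjusted p = 0.162). ENSCHIG00000007439 was higher in the NTS in all goats at 24 h of room air (0.44) and of CO2, and lower in all at 7 d of room air (change between the room-air groups -0.81, edgeR, adjusted p = 0.0908). NDUFB4 was higher in the NTS in all goats after 7 d of CO2 (0.35) and lower in all after 3 h and 24 h, and SMIM11 was higher in all after 7 d (0.73) and lower in all after 24 h. The difference between these CO2 groups, which are of different batches, was not tested.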

How the results depend on the processing

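RLE factors, no filter and a filter of 1 CPM kept every count of genes called within 1.5 times of the value reported, and no called difference of a gene named or given by identifier reversed its sign in any setting. S100A10 at 24 h had an adjusted p of 0.0511 with RLE factors and 0.0740 with no filter. Without the goat as a replicate block the calls were 488 at 24 h and 265 shared genes (244 of the 469), 1618 and 2754 after 24 h and 7 d of CO2, and 0 for the change after 24 h; S100A10 lost its 24 h call (adjusted p = 0.155) and MEOX2 its 7 d call (adjusted p = 0.0759). With an absolute log2 difference of at least 1 the calls were 337, 487, 206, 570 and 618 at 24 h and 7 d of room air and 3 h, 24 h and 7 d of CO2, 211 shared genes and 5 for the change after 24 h. Of the shared genes 218 and 207 then passed after 24 h and 7 d of CO2. DESeq2 called 708 shared genes, 1072 after 3 h (287 of the shared), and 183, 197 and 37 for the changes between room-air groups, after 24 h and after 7 d. Voom called 764 shared genes, 2638 at 7 d, and 114, 190 and 7 for those changes. The 60-library fit called 2925 at 7 d, 2338 after 3 h (373 of the shared), and 123, 0 and 4 for those changes. Without the goats whose NTS libraries stood apart the calls were 2166 at 24 h, 735 shared, and 5 and 230 for the first 2 changes. Leaving out each goat in turn gave 482 to 1161 at 24 h, 635 to 2546 at 7 d, 284 to 519 shared, 92 to 510, 2438 to 4309 and 3571 to 4658 after 3 h, 24 h and 7 d of CO2, of the shared genes 69 to 178, 375 to 402 and 398 to 426 in these groups, and 0 to 79, 0 to 0, 0 to 189 and 0 to 2 for the changes between room-air groups and after 3 h, 24 h and 7 d. The causes were not tested. Over the room-air and CO2 groups together, calls of named genes were kept 483 times and lost 87 times when a goat was left out, and kept 671 times and lost 40 times under other settings. Of the room-air calls of genes with a symbol made in 1 group alone, 7 of 8 at 24 h and 11 of 15 at 7 d were lost without some goat.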
